A study of Homo sapiens with 4 samples.

Results

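CAL27 is an established human cell line from a squamous cell carcinoma of the tongue. The comparison described here sets a CAL27 culture grown with decitabine against a CAL27 culture grown with the solvent DMSO. Decitabine (5-aza-2'-deoxycytidine, labelled 5-AZA-CdR or DAC) was given at 10 µM for 48 h. The pair makes up 2 of the 4 libraries of polyadenylated RNA in the series. It was defined by cell line and treatment, with earlier results of these data known. The other 2 libraries are a DMSO culture and a decitabine culture of the line labelled SCC15, with the same dose and time, and serve here only as a second pair to set beside CAL27. Both lines were grown in DMEM with fetal bovine serum, and the labels name no further treatment. With 1 library per condition there was no replicate check, and no p-value is given. Differences are stated as ratios with exact conditional binomial 95% intervals, and these cover counting error only.

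Decitabine is built into DNA in place of cytidine and binds DNA methyltransferases irreversibly, so that new strands are left without methyl groups over successive divisions. In carcinoma cells, genes kept silent by methylation are known to include cancer-testis antigens, some imprinted genes and promoters rich in the dinucleotide CG. Transcripts from endogenous retroviruses can also return and are known to set off interferon signalling through double-stranded RNA sensors. DNA methylation itself was not measured in these libraries.

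The counted reads numbered 14524461 with DMSO and 14714809 with decitabine. A read was counted for 21906 genes with DMSO and for 23589 with decitabine, of 51103 genes in the table. Squamous epithelial markers were present in both libraries, with 9 of 10 passing the filter on low values and a summed 590 FPKM with DMSO against 631 with decitabine (FPKM scales fragments by gene length and library total). In TMM-scaled CPM, which also corrects for composition, their sum was 2108 against 1883. KRT14 was the marker under the filter, with 1 read against 15. Leukocyte markers had 3 reads in all against 5, and 4 of the 6 were at 0 in both libraries. Of the endothelial markers, CDH5 held 668 of 688 reads with DMSO and 785 of 833 with decitabine, while PECAM1 had 0 against 3. Fibroblast markers summed to 2.19 FPKM against 6.10, with most of the reads in COL1A1, while DCN was at 0 in both libraries and COL3A1 had 2 reads against 0. In bulk RNA, more cells of a type and more RNA per cell cannot be told apart.

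Levels were expressed as CPM, reads divided by the library total after TMM scaling (a trimmed mean of ratios). A gene is called higher here for a log2 ratio of 1 or more, and lower for -1 or less, provided that 1 of the 2 CAL27 libraries reached 1 CPM. With decitabine 732 genes were higher (5.14% of the 14238 genes past the CPM minimum) and 184 were lower (1.29%), or 3.98 higher genes for each lower gene. The ratios as a whole were centred, with a median of 0.0016 and a middle range from -0.25 at the 25th percentile to 0.31 at the 75th. The tails were uneven: 99 genes were higher by 4-fold or more and 12 were lower by as much. The counting interval lay above 0 for 709 of the 732 higher genes and below 0 for 174 of the 184 lower ones. For 165 higher genes (1.16%) and 22 lower genes (0.155%) the whole interval lay beyond 2-fold. Just inside the threshold, among genes counted 30 times or more, was OXLD1, which overlaps CCDC137, with 82 reads against 185 and a log2 ratio of 1.0016. Just outside it was C1R, a complement protease, with 599 against 1335 and 0.998.

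**Figure D1:**
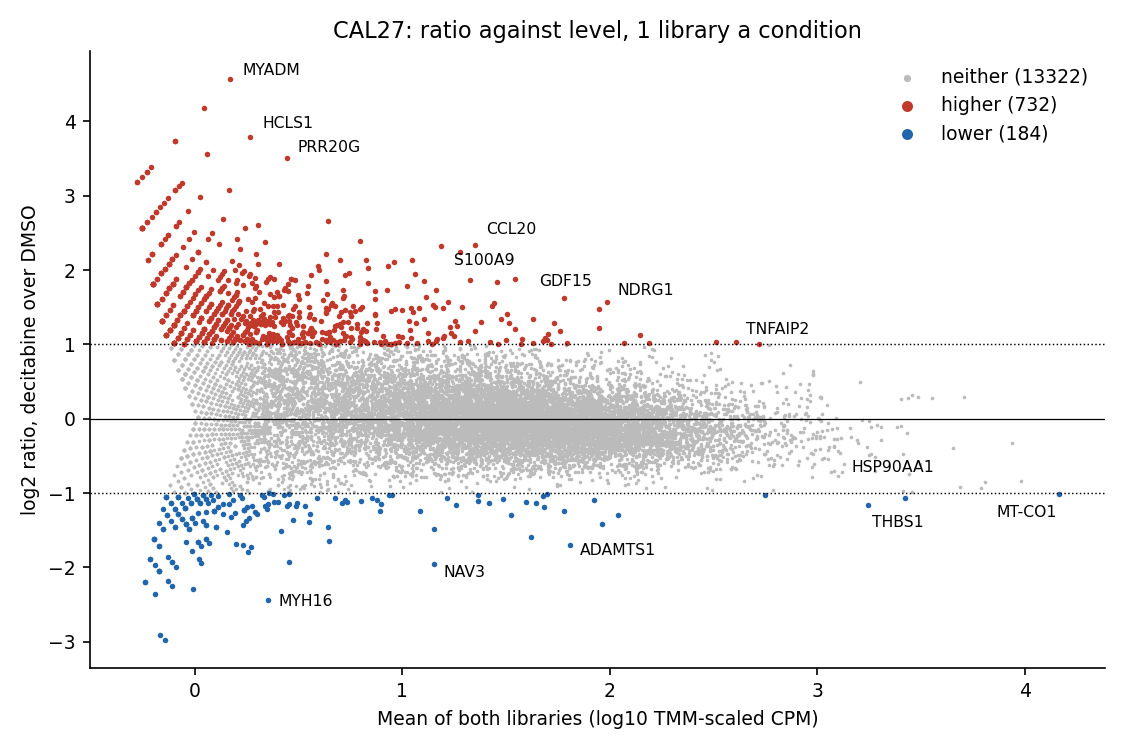
Each dot is 1 of 14238 genes past the CPM minimum in CAL27. The x axis is the mean of both libraries in TMM-scaled CPM (log10), the y axis the log2 ratio of decitabine over DMSO, and dotted lines mark a 2-fold difference. The 732 higher genes (red) lie mostly at low CPM, while the most counted of the 184 lower genes (blue) include THBS1 and MT-CO1.

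Most of the difference lay in genes with few reads in the DMSO library. Under 1 CPM with DMSO there were 742 genes, which passed the filter only through the decitabine library and so had to be above their DMSO level, and 414 of them were called higher. By the same filter 366 genes passed through DMSO alone, and 118 of these were called lower. Among 4241 genes at 1 to 10 CPM with DMSO, 6.44% were higher and 3.63% lower. Among 7022 genes at 10 to 100 CPM the shares were 0.584% and 0.328%. Of the 2233 genes at 100 CPM or more, 4 were higher and 7 lower. The median log2 ratio was 0.14 at 1 to 10 CPM, -0.03 at 10 to 100 and -0.17 at 100 or more. Counting only the 13130 genes at 1 CPM or more in both libraries left 318 higher genes (2.42%) and 66 lower (0.503%).

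From 0 reads with DMSO, 56 genes reached at least 10 reads with decitabine, 0.192% of the 29197 genes without a read in the DMSO library. In the other direction 7 genes with at least 10 reads with DMSO had none with decitabine, 0.0254% of 27514. The counts were small: the median of the 56 was 12 reads, 5 had 20 or more, and only 10 passed the CPM minimum. Protein-coding genes made up 37 of them, antisense transcripts 10, pseudogenes 6 and long intergenic RNAs 3. Of the 56, 8 lay on the X chromosome (14.3%), against 4.56% of all genes without a read in the DMSO library. A single read or more appeared in 3683 genes that had none with DMSO, while 2000 genes showed the reverse.

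The promoter windows below run from 250 bases before to 50 bases after the annotated start (RefSeq, GRCh38.p14) and are printed 5′ to 3′ on the gene's strand, with each CG dinucleotide, which reads the same on both strands, in capitals. They are the windows of 3 newly detected genes and of 2 well-counted higher genes, shown because they span CG-rich to CG-poor promoters among the genes described next, and they were chosen after their values were seen. RASL11B (chr4:52862067-52862366, plus strand) holds 43 CG, MAGEB2 (chrX:30215313-30215612, plus strand) 21, ITM2A (chrX:79367285-79367584, minus strand) 11, S100A9 (chr1:153357604-153357903, plus strand) 5 and CCL20 (chr2:227813592-227813891, plus strand) 3. Of all 35116 windows in that table, 96.0% hold at least 1 CG and 48.9% hold 15 or more.
RASL11B: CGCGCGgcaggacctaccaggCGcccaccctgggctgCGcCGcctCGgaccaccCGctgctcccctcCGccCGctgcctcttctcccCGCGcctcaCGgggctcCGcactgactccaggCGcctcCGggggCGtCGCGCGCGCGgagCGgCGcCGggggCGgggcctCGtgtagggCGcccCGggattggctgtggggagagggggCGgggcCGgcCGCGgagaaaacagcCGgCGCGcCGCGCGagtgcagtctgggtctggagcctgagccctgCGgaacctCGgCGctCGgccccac
MAGEB2: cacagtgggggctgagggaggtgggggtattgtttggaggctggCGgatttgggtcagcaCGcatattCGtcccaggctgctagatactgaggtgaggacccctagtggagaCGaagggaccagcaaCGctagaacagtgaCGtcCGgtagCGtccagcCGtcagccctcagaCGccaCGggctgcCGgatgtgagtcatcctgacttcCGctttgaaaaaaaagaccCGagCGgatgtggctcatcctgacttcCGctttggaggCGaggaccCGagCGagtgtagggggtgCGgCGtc
ITM2A: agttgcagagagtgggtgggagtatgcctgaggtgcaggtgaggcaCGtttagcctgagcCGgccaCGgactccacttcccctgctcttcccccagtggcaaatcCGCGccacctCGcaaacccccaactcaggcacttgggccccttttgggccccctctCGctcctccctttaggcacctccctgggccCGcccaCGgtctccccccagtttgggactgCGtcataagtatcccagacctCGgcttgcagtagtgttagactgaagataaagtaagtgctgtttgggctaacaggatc
S100A9: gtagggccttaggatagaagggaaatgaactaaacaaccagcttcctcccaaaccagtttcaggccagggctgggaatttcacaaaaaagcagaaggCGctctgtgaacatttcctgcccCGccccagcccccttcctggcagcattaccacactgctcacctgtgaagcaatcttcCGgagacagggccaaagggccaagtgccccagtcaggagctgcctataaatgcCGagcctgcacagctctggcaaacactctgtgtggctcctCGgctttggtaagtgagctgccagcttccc
CCL20: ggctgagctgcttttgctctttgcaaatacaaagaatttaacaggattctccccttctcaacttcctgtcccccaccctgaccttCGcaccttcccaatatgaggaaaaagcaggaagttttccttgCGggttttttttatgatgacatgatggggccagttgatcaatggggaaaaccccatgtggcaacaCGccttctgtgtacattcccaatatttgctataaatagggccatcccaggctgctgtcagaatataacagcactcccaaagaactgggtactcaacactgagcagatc

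MYADM, a membrane protein first described in differentiating myeloid cells, had 0 reads with DMSO and 48 with decitabine, at least 14.4-fold higher when the count of 0 is set to a floor of 3 reads. ITM2A, a membrane protein of cartilage and T cells, had 0 and 36 reads, at least 10.8-fold higher. These were the only 2 newly detected genes with 30 reads or more. FRMPD2, a scaffold protein, and MAGEB2, a cancer-testis antigen encoded on the X chromosome, each had 0 reads against 26, at least 7.78-fold higher. RASL11B, a small GTPase of the RAS family, had 0 against 20, at least 5.98-fold higher. TEX13C, a testis-expressed gene on the X chromosome, and PSG8, a pregnancy-specific glycoprotein, had 0 against 19 each. The secreted proteins WISP2, CHRD (the BMP antagonist chordin) and NTN5 (a netrin) had 0 against 18, 17 and 17. All 10 were at 0 in the DMSO library, and the highest level among them with decitabine was that of MYADM, 2.96 CPM.

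Germline genes were among the newly detected. DAZL, a germ cell protein that binds messenger RNA, had 0 reads against 16, and CTCFL, the testis paralogue of CTCF, 0 against 11. Of 52 cancer-testis antigen genes found in the table, 5 were newly detected, namely MAGEB2, SPANXB1 (16 reads), TKTL1 (13), MAGEC1 (11) and CTCFL, and 21 were at 0 in both libraries. Only 5 of the 52 passed the CPM minimum, of which MAGEB2 alone was called higher, having passed through the decitabine library alone. The cancer-testis antigens already abundant with DMSO stayed under 2-fold: MAGEA4 had 3896 reads against 5097 (log2 ratio 0.23), PRAME 278 against 465 (0.58), MAGEA3 1526 against 1689 (-0.01) and MAGEA6 1838 against 1530 (-0.42). Reads of near-identical MAGE and SPANX genes can be split or lost in counting, so these values are uncertain. Of 12 germline and meiosis genes past the filter, PIWIL4 (6 against 21 reads) and PIWIL2 (14 against 35), which bind piRNAs, were called higher, with log2 ratios of 1.39 and 1.07, but both were under 1 CPM with DMSO and passed through the decitabine library alone. Of the 8 at 1 CPM or more in both libraries, 0 were called.

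Among genes with 30 or more reads in 1 library, the highest lower bounds of the interval belonged, after MYADM and ITM2A, to HCLS1, PRR20G and UCHL1. HCLS1, an actin regulator of blood cells, had 2 reads with DMSO and 58 with decitabine, a log2 ratio of 3.79 with an interval of 2.78 to 7.78. PRR20G, a proline-rich gene, had 5 against 85, a log2 ratio of 3.50 (2.65 to 5.59). UCHL1, a neuronal ubiquitin hydrolase reported methylated in oral carcinoma, had 1 against 36, a log2 ratio of 3.56 (2.44 to 10.36). Their intervals are wide because 5 or fewer reads were counted with DMSO. The imprinted noncoding RNA H19 had 3 against 44, and IZUMO4, of a sperm protein family, had 2 against 32, a log2 ratio of 2.98 (1.87 to 6.95).

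Secreted and surface proteins of epithelia were among the better counted of the 15 higher genes named by interval bound. CCL20, a chemokine of mucosal epithelium, had 107 reads against 612, a log2 ratio of 2.34 with an interval of 2.06 to 2.67. S100A9, a subunit of the antimicrobial protein calprotectin, had 74 against 419, a log2 ratio of 2.32 (1.99 to 2.72). MUC1, a membrane mucin, had 96 against 512, a log2 ratio of 2.24 (1.94 to 2.59). The lower bounds of these 3 intervals lie between 1.94 and 2.06. ANGPTL4, a secreted inhibitor of lipoprotein lipase, had 16 against 124, a log2 ratio of 2.66 (2.04 to 3.65). ISYNA1, which makes inositol phosphate, had 28 against 173, a log2 ratio of 2.39 (1.89 to 3.10). SERPINB3, a protease inhibitor known as squamous cell carcinoma antigen, had 7 against 58, a log2 ratio of 2.60 (1.76 to 4.27). PADI3, an enzyme of hair and skin that turns arginine into citrulline, had 59 against 295, and the transcription factor gene CEBPD had 49 against 243, with log2 ratios of 2.13 and 2.11.

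**Figure D2:**
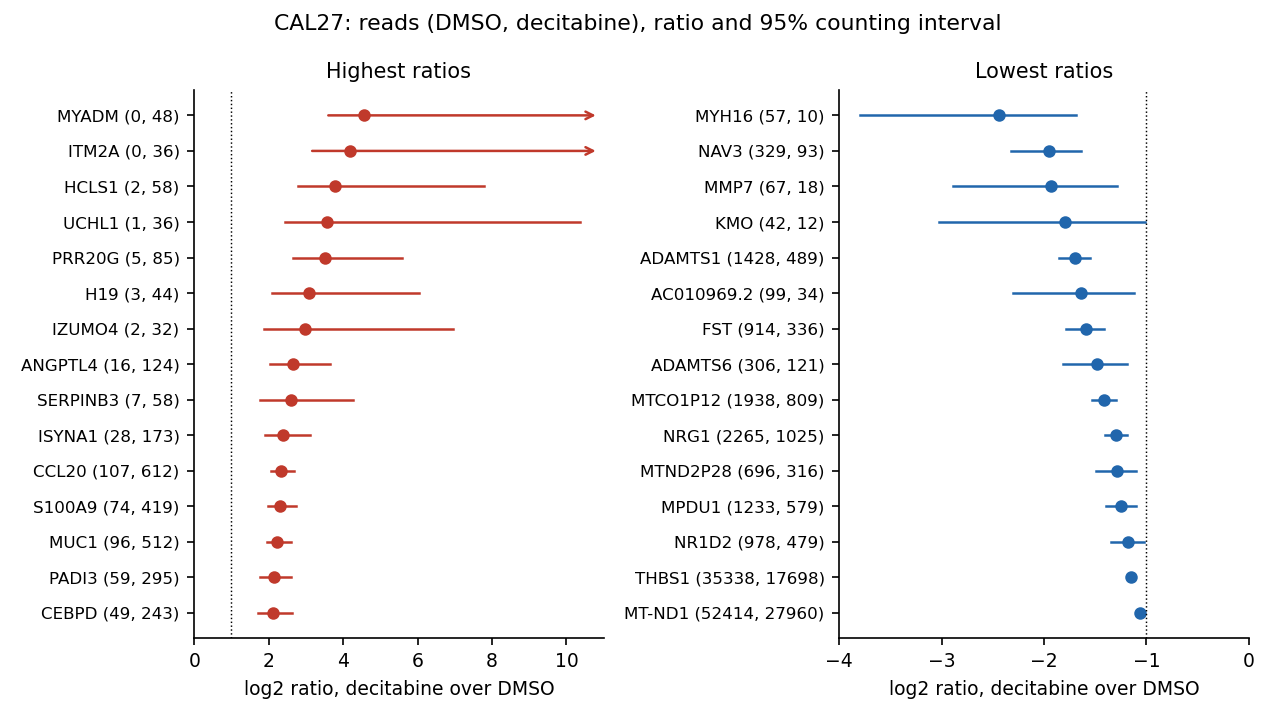
The 15 higher genes (left, red) and the 15 lower genes (right, blue) named by interval bound in CAL27. Brackets give reads in the DMSO and decitabine library. Dots are log2 ratios, lines 95% counting intervals, arrows intervals without an upper end, and dotted lines 2-fold. CCL20 at 2.34 and ADAMTS1 at -1.70 have short intervals, while MYADM and ITM2A start from 0 reads.

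Genes lower with decitabine were fewer, and several encode matrix and growth factor proteins. ADAMTS1, a secreted protease of proteoglycans, had 1428 reads with DMSO and 489 with decitabine, a log2 ratio of -1.70 with an interval of -1.85 to -1.55. FST (follistatin), which binds activin, had 914 against 336, a log2 ratio of -1.59 (-1.78 to -1.42). NRG1, a ligand of ERBB3 and ERBB4, had 2265 against 1025, a log2 ratio of -1.30 (-1.41 to -1.19). All 3 were well counted in both libraries. THBS1, a matrix glycoprotein that can activate latent TGF-beta, had 35338 against 17698 reads, with a log2 ratio of -1.15 (-1.18 to -1.13), and had the most reads of any nuclear gene called lower among the 15 named. NAV3, a microtubule-binding protein, had 329 against 93, a log2 ratio of -1.95 (-2.33 to -1.64). The proteases MMP7 (67 against 18 reads) and ADAMTS6 (306 against 121) had log2 ratios of -1.93 and -1.48.

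Metabolic and regulatory genes completed the lower group. MPDU1, a protein of the dolichol sugar pathway, had 1233 reads against 579, a log2 ratio of -1.24 (-1.39 to -1.10). NR1D2, a repressor of the circadian clock, had 978 against 479, a log2 ratio of -1.18 (-1.35 to -1.03). KMO, an enzyme of tryptophan breakdown, had 42 against 12, and the noncoding AC010969.2 had 99 against 34. MYH16, a myosin of jaw muscle that is inactivated in humans, had 57 against 10, and its log2 ratio of -2.44 (-3.80 to -1.68) was the lowest of the 15 named. Among genes without a read with decitabine, AC092718.8 had 13 reads with DMSO, CASC1 12, AC011476.2 12, SLC24A4 11 and AC005062.1 11. No gene with 30 or more DMSO reads dropped to 0.

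Genes encoded by mitochondrial DNA were lower as a group. All 12 past the filter had a negative log2 ratio, from -1.06 to -0.31 with a median of -0.89, and 3 of them were called lower. They took 7.24% of all reads with DMSO and 4.28% with decitabine. MT-CO1, a subunit of cytochrome oxidase, had 284245 reads against 156952, a log2 ratio of -1.01 and the largest loss in scaled CPM. MT-ND1, a subunit of complex I, had 52414 against 27960, a log2 ratio of -1.06 (-1.08 to -1.04). MT-ND6, with the smallest difference, had 10422 against 9379 (-0.31). MTCO1P12 (1938 against 809 reads) and MTND2P28 (696 against 316), nuclear copies of mitochondrial genes, were lower too, but their reads cannot be told apart with confidence from those of the mitochondrial genes. Mitochondrial genes made up 22.5% of all scaled CPM lost. The other 2 of the 10 largest losses were those of EEF1A1, an elongation factor (141343 against 125657 reads, log2 ratio -0.33), and HSP90AA1, a chaperone (50317 against 28530, -0.97).

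The largest gains in abundance were modest ratios of highly expressed genes, none of them past 2-fold. The actin gene ACTB gained 1053 scaled CPM (log2 ratio 0.30), the metallothionein MT2A 696 (0.28), ACTG1 641 (0.32), PKM 628 (0.30) and B2M, the light chain of class I MHC, 542 (0.49). SOD2, the mitochondrial superoxide dismutase, had 5691 reads against 12617 and lay just under the threshold at 0.99. The nuclear noncoding RNA NEAT1 had 10897 against 18955 (0.64), and the glycolytic gene PGK1 had 11090 against 18738 (0.60).

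Gene lists are read here against the 5.14% of all filtered genes called higher and the 1.29% called lower. Since a member that passed through decitabine alone had to be above its DMSO level, counts are also given for members at 1 CPM or more in both libraries, where 2.42% of all genes were higher and 0.503% lower. Epithelial secretion and keratinocyte differentiation held the largest shares of higher genes among the lists of 20 or more filtered genes. Of 20 genes of simple epithelium and mucus secretion past the filter, 8 were higher (40.0%) and 0 lower, with a median log2 ratio of 0.72. At 1 CPM or more in both libraries 7 of 19 were higher, with a median of 0.71. AGR2, which folds mucins in the endoplasmic reticulum, had 26 reads against 134, a log2 ratio of 2.13. SCNN1A, a subunit of the epithelial sodium channel, had 181 against 727 (1.84), and WFDC2, a secreted protease inhibitor, 688 against 2127 (1.47). The membrane mucin MUC16 had 58 against 175 (1.41), SLPI, an inhibitor of leukocyte proteases, 56 against 147 (1.21) and KRT19 9 against 32 (1.49). The abundant simple-epithelial keratins did not share this direction, with KRT8 at 18888 against 15699 reads (-0.42) and KRT18, which overlaps it on the other strand, at 9820 against 6413 (-0.77). FOXA1, a transcription factor of secretory epithelium, had 222 against 161 (-0.61).

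Of 22 keratinocyte differentiation genes past the filter, 6 were higher (27.3%) and 0 lower, with a median of 0.63. Of these 6, 3 passed through decitabine alone, and at 1 CPM or more in both libraries 3 of 17 were higher, with a median of 0.35. Besides SERPINB3, S100A9 and PADI3 these were SERPINB4 (13 against 49 reads, log2 ratio 1.62), the transcription factor ELF3 (147 against 467, 1.50) and the transglutaminase TGM5 (7 against 19, 1.09, with a counting interval of -0.03 to 2.78 that includes 0). Late cornification genes were nearly silent in both libraries: IVL had 11 reads in each, FLG 6 against 9, and SPRR1B 5 against 3. Basal keratinocyte genes as a list were centred near 0, with 3 of 22 higher (13.6%), 0 lower and a median of -0.07, which turned positive (0.06) under total-count scaling. The nerve growth factor receptor NGFR, a basal-layer gene, had 49 against 184 (1.71), KRT6B 59 against 151 (1.17) and KRT17 410 against 930 (1.02). KRT5 had 8054 against 8359 (-0.10), and the laminin chain gene LAMA3 (2541 against 1600, -0.82) was the lowest of that list. Reads of keratin genes may be split among near-identical family members.

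**Figure D3:**
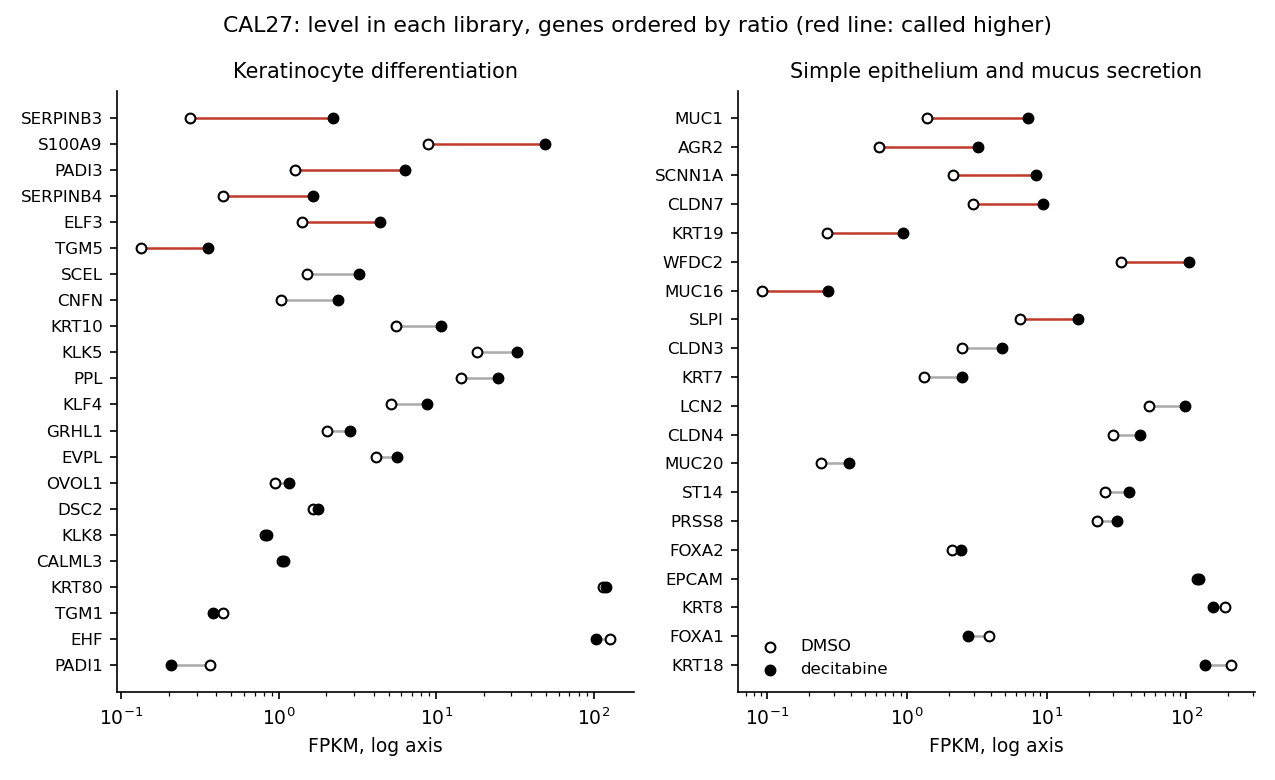
Levels in FPKM (log axis, as deposited, per gene length) of the filtered keratinocyte differentiation genes (left, 22) and simple epithelium and mucus genes (right, 20) in the 2 CAL27 libraries, open for DMSO and filled for decitabine. Genes are ordered by log2 ratio and red lines mark the 6 and 8 genes called higher. KRT8 and KRT18, the genes with the highest DMSO levels on the right, have lower FPKM with decitabine.

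Inflammatory genes were mostly above their DMSO level. Of 38 cytokine and NF-kB target genes past the filter, 4 were higher, 0 were lower and 29 had a positive ratio, with a median of 0.53. IL6, a cytokine of the acute phase response, had 203 reads against 648 (log2 ratio 1.51), and CCL2, a chemokine for monocytes, 3119 against 7113 (1.03). TNFAIP2, a gene induced by TNF, had 3881 against 8855 (1.03). IL1B (2082 against 4084, 0.82), CXCL8 (1593 against 3400, 0.94) and NFKBIA (1799 against 3396, 0.76) stayed under 2-fold. CSF3 (18 against 9, -0.996) and IL24 (206 against 125, -0.87) lay in the other direction. The chemokine CXCL5 was among the newly detected, with 0 reads against 13.

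Interferon-stimulated genes had 4 of 47 higher (8.51%, against 5.14% of all filtered genes) and 0 lower, with a median of 0.32. CXCL10 and RSAD2 were among the 4 but passed through decitabine alone, and at 1 CPM or more in both libraries 2 of 45 were higher. The chemokine CXCL10 had 2 reads against 17, a log2 ratio of 2.14 with an interval of 0.86 to 6.09. BST2, which tethers budding viruses, had 91 against 288 (1.49) and IFIT2 461 against 1131 (1.14). Other well-known members stayed under 2-fold: ISG15 had 1463 against 1924 (0.24) and MX1 592 against 577 (-0.19). Double-stranded RNA sensors had 0 of 13 called in either direction and a median of 0.24, with ADAR, which edits such RNA, at 6816 against 7089 (-0.10) and TRIM25 at 2588 against 3416 (0.24). Of 9 genes derived from endogenous retroviruses or retrotransposons past the filter, 2 were higher (22.2%, against 5.14% of all filtered genes) and 0 lower. At 1 CPM or more in both libraries 1 of 8 was higher. Both called genes were RTL genes, RTL5 (3 against 21, 2.08, through decitabine alone) and RTL8B (48 against 118, 1.11). The filtered ERV genes were not called: ERV3-1 had 297 against 443 (0.42), ERVK13-1 160 against 190 (0.09), ERVMER34-1 108 against 102 (-0.23) and ERVK3-1 88 against 79 (-0.30). Antigen presentation had 4 of 26 higher (15.4%), all of them MHC class II: HLA-DQA1 (4 against 21, 1.82, through decitabine alone), HLA-DPA1 (36 against 128, 1.62), HLA-DPB1 (59 against 138, 1.05) and HLA-DRA (502 against 1126, 1.01). The class II regulator CIITA had 166 against 221 (0.25). HLA reads can be split between alleles and relatives, and HLA-DPA1 overlaps HLA-DPB1 on the other strand.

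The targets of the drug were not among the called genes. DNMT1, the maintenance methyltransferase, had 3650 reads against 3790, a log2 ratio of -0.10 with an interval of -0.17 to -0.04. DNMT3A had 120 against 211 (0.65, interval 0.33 to 0.99) and DNMT3B 203 against 291 (0.36, interval 0.10 to 0.63). UHRF1, which guides DNMT1 to new strands, had 1985 against 2066 (-0.10). Of 16 methylation genes past the filter, 0 were called in either direction, and their median was -0.10, or 0.04 under total-count scaling. Of 28 genes reported methylated in oral carcinoma past the filter, 5 were higher (17.9%, against 5.14% of all filtered genes) and 2 lower. Of the 5, all but DAPK1 were under 1 CPM with DMSO and passed through decitabine alone, and at 1 CPM or more in both libraries 1 of 23 was higher and 2 were lower, with a median of -0.10. The higher ones were UCHL1, IRX4 (1 against 23 reads, 2.96), TFPI2 (4 against 27, 2.15), DAPK1 (16 against 42, 1.15) and SFRP1 (9 against 24, 1.11). The lower ones were THBS1 and EDNRB, an endothelin receptor (109 against 55, -1.11). The median of the 28 was 0.14, and it became -0.03 once a trend of the ratio with GC content was removed. CDH1 (2727 against 3911, 0.36) and CDKN2A (562 against 894, 0.51) were measured well and not called. Of 16 imprinted genes, H19 was higher, with a log2 ratio of 3.08, having passed through decitabine alone, and MEST (1261 against 944, -0.57) and NNAT (20 against 13, -0.69) lay lowest.

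Genes of S phase were below their DMSO level by small amounts. Of 45 DNA replication genes past the filter, 43 had a negative log2 ratio, the median was -0.31 and 0 were called. Over all filtered genes the median was -0.03 at 10 to 100 CPM with DMSO and -0.17 at 100 or more. The part of expression level in the list medians was not tested. MCM7, a helicase subunit, had 6415 reads against 4783 (-0.58, interval -0.63 to -0.52), TYMS, thymidylate synthase, 318 against 211 (-0.74) and PRIM1, a primase, 358 against 222 (-0.84). PCNA had 3383 against 3310 (-0.19) and TK1 4412 against 4783 (-0.04). Of 41 repair genes, 35 were negative, with a median of -0.27, and RAD54B (94 against 49, -1.06) was the called one. G2 and mitosis genes had 0 of 40 called and a median of -0.10, which became 0.04 under total-count scaling, with CDC20 at 5375 against 5383 reads (-0.15) and CKS2 at 1862 against 1979 (-0.07).

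Of 33 p53 target genes, 3 were higher (9.09%, against 5.14% of all filtered genes) and 0 lower, with a median of 0.12. At 1 CPM or more in both libraries 2 of 31 were higher. GDF15, a secreted stress cytokine, had 429 reads against 1473 (log2 ratio 1.62), TP53I11 104 against 339 (1.53) and SPATA18, through decitabine alone, 6 against 18 (1.19). The cell cycle inhibitor CDKN1A had 570 against 1061 (0.74) and MDM2 925 against 837 (-0.30). The lists of apoptosis regulators, integrated stress and unfolded protein response genes and NRF2 targets each held 1 call, a share below the 5.14% of all filtered genes. At 1 CPM or more in both libraries these were 1 of 31, 1 of 28 and 1 of 20, against 2.42% of all such genes. The called member was BMF, a BH3-only protein, of 31 apoptosis regulators (47 against 150, 1.48). It was VLDLR of 28 stress response genes (65 against 170, 1.21) and AKR1C3 of 21 NRF2 targets (76 against 172, 1.00). Of 5 metallothioneins, MT1F was called (56 against 143, 1.17), and of 16 histone genes HIST1H3E (10 against 41, 1.70), the latter through decitabine alone.

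Hypoxia and glycolysis genes had 4 of 33 higher (12.1%, against 5.14% of all filtered genes) and 0 lower, all 4 at 1 CPM or more in both libraries, with a median of 0.30. Besides ANGPTL4 these were CA9, a carbonic anhydrase (68 reads against 298, log2 ratio 1.95), NDRG1 (710 against 2360, 1.57) and the aldolase gene ALDOC (357 against 835, 1.07). VEGFA had 2202 against 2536 (0.05) and ENO1 74687 against 63446 (-0.39). In the Notch pathway 3 of 19 were higher (15.8%), or 2 of 17 at 1 CPM or more in both libraries: the receptor NOTCH3 (132 against 542, 1.87) and the ubiquitin ligases DTX1 (5 against 28, 1.97) and DTX4 (70 against 221, 1.48). The effector HES1 had 234 against 312 (0.26) and HEY1 37 against 41 (-0.01). TGF-beta and BMP response genes had 4 of 20 higher (against 5.14% of all filtered genes) and FST lower. At 1 CPM or more in both libraries 3 of 18 were higher and 1 was lower. Higher were the inhibitors of differentiation ID1 (216 against 892, 1.88) and ID3 (199 against 506, 1.18). The activin subunit INHBB (18 against 79, 1.87) was higher too, as was ID2 (12 against 34, 1.22), through decitabine alone. The median of this list, 0.31, became -0.12 when at least 5 CPM was required. Of 27 immediate early genes, EGR1 (305 against 790, 1.21), FOS (32 against 84, 1.19) and NR4A2 (15 against 43, 1.26) were higher (11.1%).

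Mesenchymal genes had 3 of 23 higher (against 5.14% of all filtered genes) and 0 lower, with a median of 0.28. COL1A1, a chain of type I collagen, had 202 reads against 669 (log2 ratio 1.56), COL1A2 20 against 56 (1.25) and S100A4 17 against 75 (1.87). Both collagen genes are also fibroblast markers, and the summed fibroblast markers went from 2.19 to 6.10 FPKM, whose part in this result was not tested. VIM had 41 against 80 (0.78), while ZEB1 (33 against 18, -0.95), SNAI2 (481 against 401, -0.42) and CDH2 (917 against 786, -0.38) lay below their DMSO level. Of 35 junction genes, TJP3 (13 against 57, 1.83), CLDN7 (108 against 346, 1.51) and NECTIN4 (40 against 94, 1.04) were higher (8.57%), TJP3 through decitabine alone. Matrix proteases and inhibitors had 2 of 18 higher, TFPI2 and KLK10 (6 against 25, 1.62), both through decitabine alone, and 3 lower. The YAP and TEAD targets had THBS1 lower of 25, and the EGFR ligands and receptors had NRG1 lower of 13, with EGFR itself at 16163 against 16108 (-0.16). Of 16 neural and endocrine genes, UCHL1, SYT12 (47 against 224, 2.05) and VGF (8 against 22, 1.13) were higher, UCHL1 and VGF through decitabine alone, and GAL (460 against 238, -1.10) was lower. Of 24 cholesterol genes TM7SF2 was called (62 against 145, 1.05), or 4.17%, below the 5.14% of all filtered genes. At 1 CPM or more in both libraries this was 1 of 23, against 2.42% of all such genes.

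**Figure D4:**
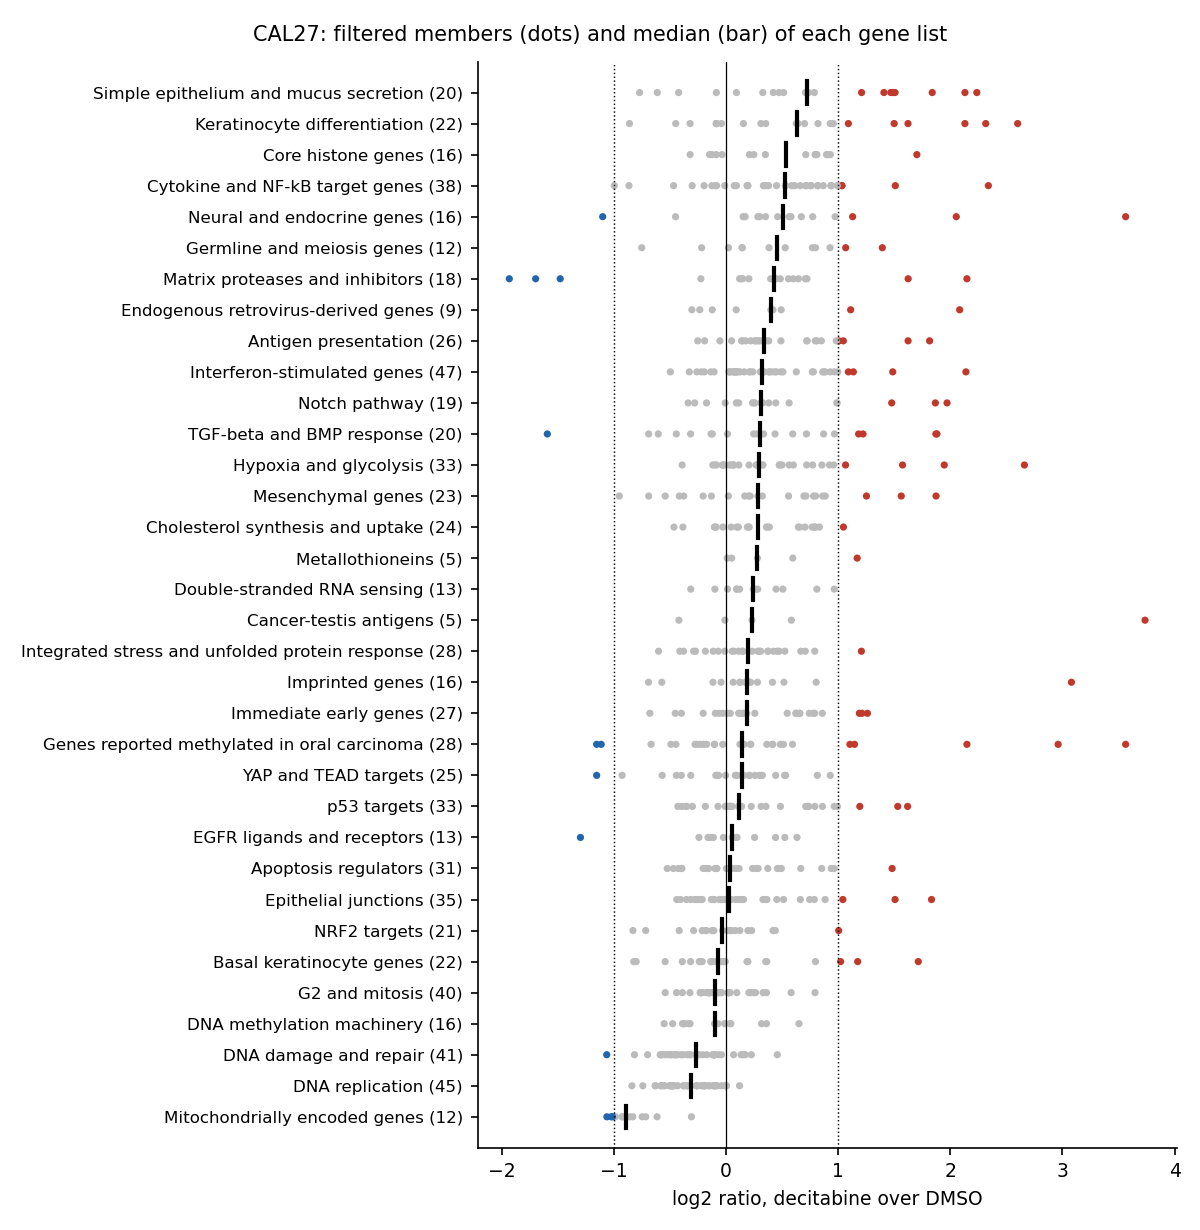
Log2 ratios in CAL27 of the members of 34 gene lists that pass the CPM minimum (number in brackets), with the list median as a black bar, called genes in red and blue, and dotted lines at 2-fold. Medians run from -0.89 for mitochondrially encoded genes to 0.72 for simple epithelium and mucus secretion, against 0.0016 for all 14238 genes.

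The base composition of transcripts was set beside the calls. The median GC content of the longest transcript was 54.3% for higher genes, 45.7% for lower genes and 48.1% for all filtered genes. Between the lowest and the highest decile of GC content, the share of higher genes went from 2.46% to 11.3% and the median log2 ratio from -0.11 to 0.25. Across the 14238 genes the ratio and GC content had a Spearman correlation of 0.267, which is over genes of 1 library pair and not over replicates. Removing the trend left 678 higher and 192 lower genes.

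Promoter windows of higher genes held fewer CG than those of other expressed genes. The median was 20.2 CG for the 462 higher genes with a window and 19 for 79 lower ones, against 25.3 for all 10700 filtered genes with one. At least 15 CG were found in 62.6%, 58.2% and 83.7% of these. For protein-coding genes with under 5 CG, 11.7% were higher, and for those with 30 or more 3.05% were. The 36 newly detected genes with a window had a median of 13.8, and 47.2% held 15 or more, as RASL11B and MAGEB2 above do. Their own background, the genes without a read in the DMSO library, had a median of 6 and 28.2%. The median level with DMSO was 0.755 CPM for higher genes against 22.2 for all filtered genes, so baseline level and promoter composition cannot be told apart in these shares.

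**Figure D5:**
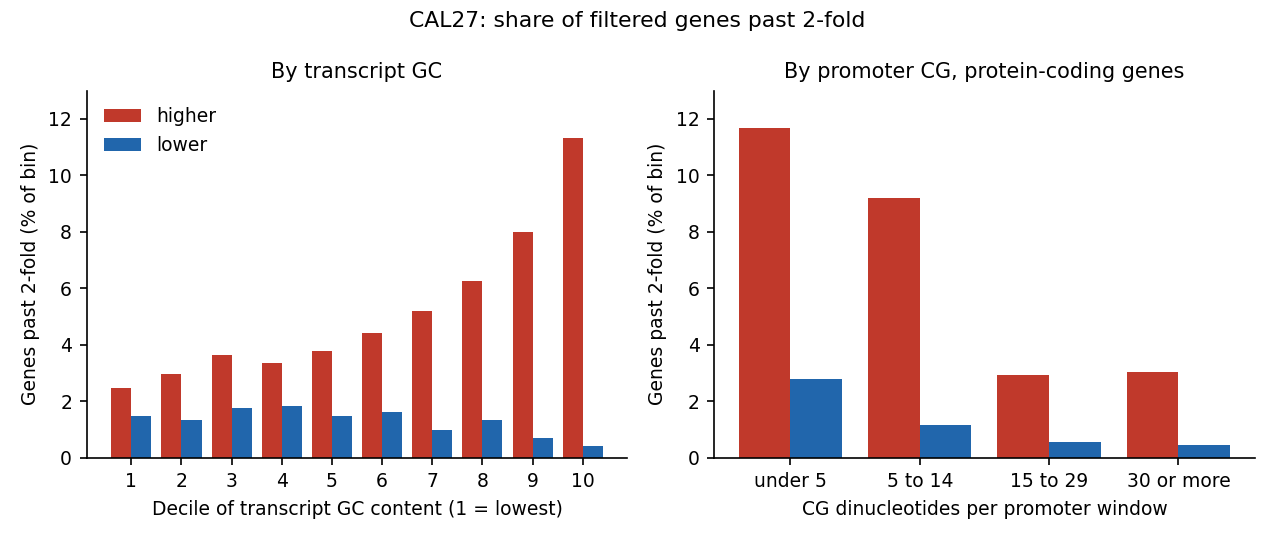
Percent of filtered CAL27 genes called higher (red) and lower (blue) by decile of transcript GC content (left) and by number of CG in the promoter window of protein-coding genes (right). The share of higher genes goes from 2.46% to 11.3% with GC content and is 11.7% under 5 CG against 3.05% at 30 or more.

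Long intergenic RNAs were called more often than coding genes, 15.2% of 481 higher and 3.74% lower, and antisense transcripts likewise, 12.3% and 5.56% of 504. Calls also differed by DMSO level, with 55.8% higher under 1 CPM and 0.584% at 10 to 100 CPM. Biotypes were not compared at matched level, so the part of level in their shares was not tested. Protein-coding genes made up 74.7% of higher genes, 52.7% of lower genes and 87.3% of all filtered genes. For 57 of 731 higher genes (7.80%) the next filtered gene on the chromosome was higher too, against 5.14% of all filtered genes. The longest runs were keratin genes KRT86, KRT81, KRT75 and KRT6B on chromosome 12 (52249300 to 52452126, GRCh38) and SERPINB13, SERPINB4 and SERPINB3 on chromosome 18 (63586989 to 63661963). Both runs hold related genes, whose reads may be shared. KRT75 and all of these SERPINB genes were under 1 CPM with DMSO and passed through decitabine alone. The count of next genes was not repeated for genes at 1 CPM or more in both libraries.

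In the SCC15-labelled pair, which lacks many squamous transcripts, the same rule called 1846 genes higher (13.3% of 13894) and 862 lower (6.20%). Of the 732 genes higher in CAL27, 412 passed the filter there, and 164 of these were higher as well (39.8% of the 412, and 8.88% of the 1846), while 31 were lower. Their median log2 ratio in that pair was 0.76, against 0.075 for all genes. Of the 184 genes lower in CAL27, 95 passed there, 26 were lower as well (27.4%, and 3.02% of the 862) and 5 were higher. Of the 56 newly detected genes, 14 had no read in either SCC15-labelled library, and 4 were newly detected there by the same rule. Of the 56, 24 had reads there without the drug, among them MYADM with 983 reads with DMSO and 2798 with decitabine and MAGEB2 with 1570 and 2058. Shares over all genes were not computed for these counts of the 56. The counts therefore do not show whether detection was shared or particular to CAL27. The difference between the lines was not tested, since each has 1 library a condition.

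Strand of counting is not given in the sources used here, so reads of overlapping genes cannot be told apart. Among the genes named this concerns, with the overlapping gene in brackets, ANGPTL4 (RAB11B-AS1), ISYNA1 (SSBP4), IZUMO4 (MOB3A), CA9 (ARHGEF39), SCNN1A (LTBR), CLDN7 (ELP5), TFPI2 (GNGT1), IFIT2 (LIPA), TM7SF2 (VPS51), PIWIL4 (FUT4), S100A4 (S100A3), ELF3 (ELF3-AS1), ALDOC (AC005726.1) and HLA-DPB1 (HLA-DPA1) of the higher genes. Of the lower genes it concerns MPDU1 (SOX15 and FXR2), THBS1 (FSIP1 and AC037198.1), KMO (OPN3), NR1D2 (NKIRAS1), RAD54B (AC023632.6), EDNRB (AL139002.1) and, of those without a read with decitabine, AC092718.8, AC011476.2 and AC005062.1. Of the others it concerns DNMT1 (S1PR2), HSP90AA1 (WDR20), SOD2 (WTAP), PGK1 (ATP7A), TRIM25 (DGKE), CIITA (DEXI), MCM7 (AP4M1), PRIM1 (NACA), TYMS (ENOSF1), MDM2 (CPM), MEST (COPG2), NNAT (BLCAP), MAGEA4, ZEB1, EGFR and CDKN2A (an antisense RNA each).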

How the data were processed

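The deposited table gives whole-number read counts per gene and FPKM for 4 libraries. HISAT2, HTSeq 0.13.5 and the build GRCh38 are named in the submitters' processing notes. Not given in the sources used here are the aligner's settings, the annotation release and the strand of counting. The FPKM values were computed by the authors, per the file headers, and were used here for levels per gene length and in 1 alternative. All 51103 identifiers were found in GENCODE release 29, from which coordinates and GC content come, and 51 names belong to several identifiers. Promoter windows came from RefSeq (GRCh38.p14), averaged over starts.

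TMM factors (edgeR 4.0.16, R 4.3.3) were computed over the 4 libraries on 15427 genes kept by filterByExpr (minimum count 10, minimum total 15). Log2 ratios used a prior count of 2. Exact conditional binomial 95% intervals were computed at the scaled library sizes, and 0 reads were replaced by a floor of 3 (0.206 scaled CPM with DMSO, 0.185 with decitabine). The library kit has no molecular identifiers in the labels, so intervals and floors cover counting error only. The scripts were tested on simulated data.

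With 1 library a group no test was possible. Genes named are the 15 higher and 15 lower genes with the most extreme interval bound (at least 30 reads in the higher library), the 10 newly detected and 5 no longer detected genes with most reads, the 10 largest gains and losses in CPM, and up to 3 called genes per list and direction, or the 2 most abundant without a call. Others named were chosen after their values were seen. The comparison and the gene lists were chosen with earlier results of these data known. Alternatives were other scalings (DESeq2 1.42.0 size factors among them), prior counts, filters, FPKM, a stricter call and removal of the GC trend.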

Additional observations from a re-analysis of the deposited data

Results flagged for a closer look

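In 12 genes the call in CAL27 and the call in the SCC15-labelled pair lay in opposite directions, each with 30 or more reads in 1 library of both pairs. With 1 library a condition the difference was not tested, and values are log2 ratios of CAL27 minus those of the SCC15-labelled pair. HOTAIRM1, a noncoding RNA of the HOXA cluster, had 13 against 47 reads in CAL27 and 49 against 8 in the other pair, a difference of 4.15. The pseudogene FAR2P1 had 88 against 201 and 43 against 4, a difference of 4.14. NPIPA1 (22 against 74, and 70 against 14) differed by 3.93 and GOLGA8A (47 against 110, and 431 against 151) by 2.80, and both belong to families of near-identical copies whose reads may be split. AC132872.1 differed by 3.65, AL080317.1 by 3.44, AC008764.6 by 2.23 and AL118516.1 by 2.11, all higher in CAL27. MIR222HG, host of microRNA genes, had 69 against 160 and 281 against 115, a difference of 2.57. ID2, an inhibitor of differentiation, had 12 against 34 and 659 against 379, a difference of 2.28. SH2D2A, an adaptor of T cells, had 39 against 12 and 23 against 111, a difference of -3.62, and AC022107.1 had 46 against 22 and 19 against 71, a difference of -2.70. Strand of counting is unknown, and FAR2P1 overlaps KLF2P1 and NPIPA1 overlaps AC138932.1.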

How the results depend on the processing

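The number of higher genes ran from 599 to 1050 and of lower genes from 131 to 226 over other scalings, prior counts of 0.5 and 5, and removal of the GC trend. Other filters gave 193 higher and 41 lower (at least 5 CPM), 2430 and 1611 (no filter, with 60.1% of calls higher against 79.9%), and 318 and 66 (at least 1 CPM in both libraries, added after seeing the data). Another measure, log2(FPKM + 1), gave 206 and 64, and a stricter call, intervals wholly beyond 2-fold, 165 and 22. Newly detected genes numbered 375 at 5 reads, 2 at 30 reads and 129 when 1 DMSO read was allowed, and genes no longer detected 122, 0 and 18. Genes higher in both pairs numbered 164, and 50 at 5 CPM, 524 without a filter, 35 on log2(FPKM + 1), 38 by whole intervals and 107 without the GC trend. Genes lower in both numbered 26, and 8, 221, 9 and 5 in the first 4 of these settings and 17 at a prior count of 5. Total-count scaling moved the median of all genes to 0.14. Medians of basal keratinocyte, squamous marker, methylation machinery, G2 and mitosis and NRF2 lists, all near 0, changed sign under it and under log2(FPKM + 1). Of 1016 ratios of 127 named genes over 8 alternatives, 0 of those called changed sign and 161 moved out of their counting interval, 95 of them on log2(FPKM + 1). No paired analysis was possible because the comparison is within CAL27, with 1 library a condition. A fit over both lines with the line as a block addresses the response shared by the lines and was not run here. Depth limits the comparison most at 0 to 10 reads, where a count of 0 allows up to 3 reads.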

Other observations

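Several gene groups were assembled after their values were seen and are given as description. Of 29 cytosolic and mitochondrial chaperone genes, 25 had a negative log2 ratio, with a median of -0.40. The median of all filtered genes at 100 CPM or more with DMSO was -0.17. HSP90AA1 had 50317 reads against 28530 (-0.97), the mitochondrial chaperonin HSPD1 21754 against 14844 (-0.71), and the chaperonin subunit TCP1 10848 against 7764 (-0.64). The small heat shock protein gene HSPB1 lay in the other direction, with 1281 against 3109 (1.12), and was the single chaperone past 2-fold.

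Of 9 filtered genes tied to the aryl hydrocarbon receptor, 3 were higher, against 5.14% of all filtered genes. These were the receptor's repressor AHRR (35 reads against 179, log2 ratio 2.14), the cytochrome CYP1A1 (45 against 141, 1.45) and the aldehyde dehydrogenase ALDH3A1 (10 against 38, 1.60). ALDH3A1 was under 1 CPM with DMSO and passed through decitabine alone. AHR had 933 against 1103 (0.09), while TIPARP (3831 against 3772, -0.18) and NQO1 (1709 against 1766, -0.11) were the 2 with a negative ratio. Of 15 filtered keratin genes, 6 were higher, against the same 5.14%, with the hair keratin KRT81 at 32 against 145 (1.96). Of these 6, KRT19 (9 against 32) and KRT75 (4 against 18) passed through decitabine alone. Of 3 peptidylarginine deiminases, PADI2 (121 against 405, 1.57) joined PADI3, while PADI1 had 26 against 15 (-0.86). Among clock genes NR1D2 was the called one of 17, with ARNTL at 159 against 346 (0.96) and PER2 at 358 against 275 (-0.53). Of 12 complement genes, 2 were higher, the inhibitor SERPING1 (26 against 110, 1.85) and, through decitabine alone, CFD (5 against 17, 1.32). C4A, whose reads can be shared with its near-identical copy C4B, was lower (15 against 5, -1.40) and passed through DMSO alone.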
